A study of Homo sapiens with 9 samples.

Results

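The genes of Wnt signal reception were followed in the renal carcinoma cell line 786-0 as a set of 47 protein-coding genes among the 58735 genes of the count table. The set was chosen by gene symbol, with earlier results of these data known. It holds 19 WNT ligand genes, 10 Frizzled (FZD) receptor genes, 8 genes of secreted inhibitors (SFRP and DKK), and 10 co-receptor or feedback genes, namely LRP5, LRP6, ROR1, ROR2, RYK, AXIN2, LGR4, LGR5, ZNRF3 and RNF43. The 786-0 line comes from a clear cell renal carcinoma without working VHL or HIF1α, and its HIF2α accumulates even where oxygen is plentiful. RNA was sequenced in 9 libraries, with 3 each from untreated 786-0 WT cells (control), from 786-0 WT cells treated for 48 h with 10 μM of PT2385, which blocks HIF2α, and from 786-0 cells with a HIF2α knockout (KO). All cells were kept for 48 h in normoxia at 21% O2, in DMEM that contained 5 mM glucose and 10% FBS, and no vehicle is named for the control cells. The deposited values are reads counted per gene, and total counts ran from 11881000 to 14730081 per library.

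The comparison of PT2385 with control asked which Wnt genes change when HIF2α is blocked, and that of KO with control which change when HIF2α is lost. Both comparisons used the same 3 control libraries. Their values are therefore given side by side, and any difference between KO and PT2385 was tested directly. The paper's methods describe HIF2α silencing by siRNA and do not describe a knockout line. The labels name the knockout, but do not say whether its replicates came from a single line or clone. They also do not say that the replicates were separate cultures. The p-values thus measure the spread between these libraries, which may be technical.

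Wnt proteins are secreted lipid-modified ligands that bind Frizzled receptors on the cell surface. With the co-receptors LRP5 or LRP6 they stabilise β-catenin, which enters the nucleus and activates target genes together with TCF/LEF factors. With ROR1, ROR2 or RYK they act without β-catenin, on cell polarity and movement, and in the kidney both branches take part in the formation and elongation of tubules.

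EPAS1, the gene of HIF2α, was examined first as a check of the labels. It had 3226, 3210 and 2788 counts in the control libraries, 3075, 3317 and 3132 with PT2385, and 262, 360 and 307 in KO. All KO libraries were low, but they were not empty, and 8.63% of the control level was left. The log2 fold change of EPAS1 was -3.52 in KO (SE 0.0963, adjusted p = 2.15e-09) and -0.11 with PT2385 (SE 0.0746, adjusted p = 0.459). The HIF2α target genes VEGFA, SLC2A1, NDRG1 and EGLN3 were down-regulated in both comparisons, with log2 fold changes of -2.12, -2.31, -3.54 and -3.14 with PT2385 and of -2.12, -1.80, -3.74 and -5.74 in KO. CA9, which was also listed for this check, had no counts in any library, control included, and so could not serve as a check.

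The cell type was checked against 4 marker lists. Of 11 markers of renal tubule and clear cell carcinoma, 10 exceeded 3 counts, all but CA9, and VIM was the most abundant. Their summed level was 6630, 6880 and 7100 CPM (counts scaled to library size) in control, 6550, 6740 and 7100 with PT2385, and 6600, 6750 and 6940 in KO. Most of this sum was VIM, with 4093 to 4910 CPM. PAX8, a renal lineage factor, had between 562 and 679 CPM in every library. Other renal markers did differ between the groups, 4 of 10 with PT2385, 5 of 10 in KO and 5 of 10 between KO and PT2385, where 7.70%, 30.1% and 18.8% of all genes were called. PAX2 was down-regulated (log2 fold change -0.44 with PT2385 and -1.30 in KO), and CDH6 (1.38 and 1.03), KRT18 (0.47 and 0.85) and KRT8 (0.26 and 0.54) were up-regulated. CDH2 was down-regulated in KO (-0.22). Without KO replicate 2 the value of CDH6 in KO was 0.68. With PT2385 the calls of PAX2 and KRT8 were lost in 5 of 6 fits that left out 1 library, with adjusted p up to 0.143 without control replicate 3 and 0.188 without control replicate 1. That of KRT18 was lost without control replicate 1 (0.0850) or control replicate 2 (0.0802), and that of CDH2 in KO in 4 fits, with adjusted p up to 0.102 without control replicate 3. With the replicate number as a block, CDH2 (0.18, adjusted p = 0.00777), VIM (-0.11, 0.0164) and KRT19 (-0.16, 0.0464) were also called with PT2385. The unpaired value of KRT19 with PT2385 ran from -0.23 to -0.0718 when 1 library was left out.

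Between KO and PT2385, PAX2 (log2 fold change -0.89, adjusted p = 0.00141) and CDH2 (-0.42, adjusted p = 0.00201) were lower in KO, and KRT18 (0.37, adjusted p = 0.0407), NNMT (0.27, adjusted p = 0.0378) and KRT8 (0.26, adjusted p = 0.0239) were higher. The calls of KRT18, NNMT and KRT8 were lost in 5, 5 and 4 of 6 fits that left out 1 library, with adjusted p up to 0.174, 0.168 and 0.129 without PT2385 replicate 2.

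None of 5 leukocyte markers exceeded 3 counts in a library. Of 5 endothelial markers only TEK did, with 4 to 6 counts in KO and at most 3 elsewhere, while PECAM1, CDH5, VWF and KDR stayed at or under 3. Of 5 fibroblast markers COL1A1, LUM and THY1 exceeded 3 counts, and PDGFRA and DCN had 0. The summed fibroblast level was 7.21, 7.57 and 6.52 CPM in control, 9.68, 10.7 and 8.38 with PT2385, and 5.86, 8.45 and 6.18 in KO. It was higher in every PT2385 library than in control, while KO overlapped control. COL1A1 had 69, 77 and 55 counts in control, 86, 104 and 88 with PT2385, and 24, 39 and 45 in KO, and was lower in KO than in control (log2 fold change -1.10, adjusted p = 0.00346) and than with PT2385 (-1.44, adjusted p = 8.12e-04). LUM had 15, 15 and 22 counts in control, 29, 37 and 31 with PT2385, and 43, 60 and 31 in KO. Both groups lay above control, but only the KO change was called (1.16, adjusted p = 0.0144, against 0.126 with PT2385). The call was lost without control replicate 1 (0.0569), control replicate 2 (0.0661) or KO replicate 2 (0.0553). THY1 had 2, 0 and 1 counts in control, 5, 2 and 1 with PT2385, and 9, 23 and 14 in KO.

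Of the 47 Wnt genes, 25 exceeded 3 counts in at least 1 library. No count was found in any library for 15 genes (WNT1, WNT2, WNT3A, WNT8A, WNT8B, WNT9B, WNT11, WNT16, FZD9, FZD10, LGR5, RNF43, DKK1, DKK2 and DKK4). A count of 0 allows up to 3 counts, which is 0.204 to 0.253 CPM in these libraries, and this limit covers counting error only. Another 7 genes (WNT4, WNT6, WNT7A, WNT9A, SFRP1, SFRP2 and SFRP5) never exceeded 3 counts. WNT5B (3 to 12 counts), WNT10B (0 to 9) and SFRP4 (1 to 7) exceeded 3 counts but were removed by the filter on low counts. The filter left 21 Wnt genes for the comparison of PT2385 with control, 22 for KO with control and 21 for KO with PT2385. WNT10A was the gene tested only in KO against control. The zero of RNF43 is uncertain, since RNF43 shares 4326 exonic bases with a readthrough gene on the same strand that had 25 counts in all, and reads on shared bases may have gone uncounted.

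Per kilobase of exon, FZD6 was the most abundant of these transcripts in control cells, at 37.7 ± 1.41 CPM per kb (SD, n = 3). It was followed by LRP6 with 13.6 ± 0.0687, ROR1 with 11.3 ± 0.884 and FZD7 with 9.69 ± 0.617. FZD7, LRP5 (9.57 ± 1.09), RYK (9.36 ± 0.703) and FZD5 (8.99 ± 0.992) did not differ beyond their spread. All ligands but WNT7B were rare, and WNT3 came next with 0.468 ± 0.0522 CPM per kb. In KO cells WNT7B reached 38.8 ± 3.24 CPM per kb and thereby exceeded FZD6 (31.8 ± 0.456). Lengths are unions of all annotated exons, so that genes with long rarely used exons appear lower than they are.

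**Figure D1:**
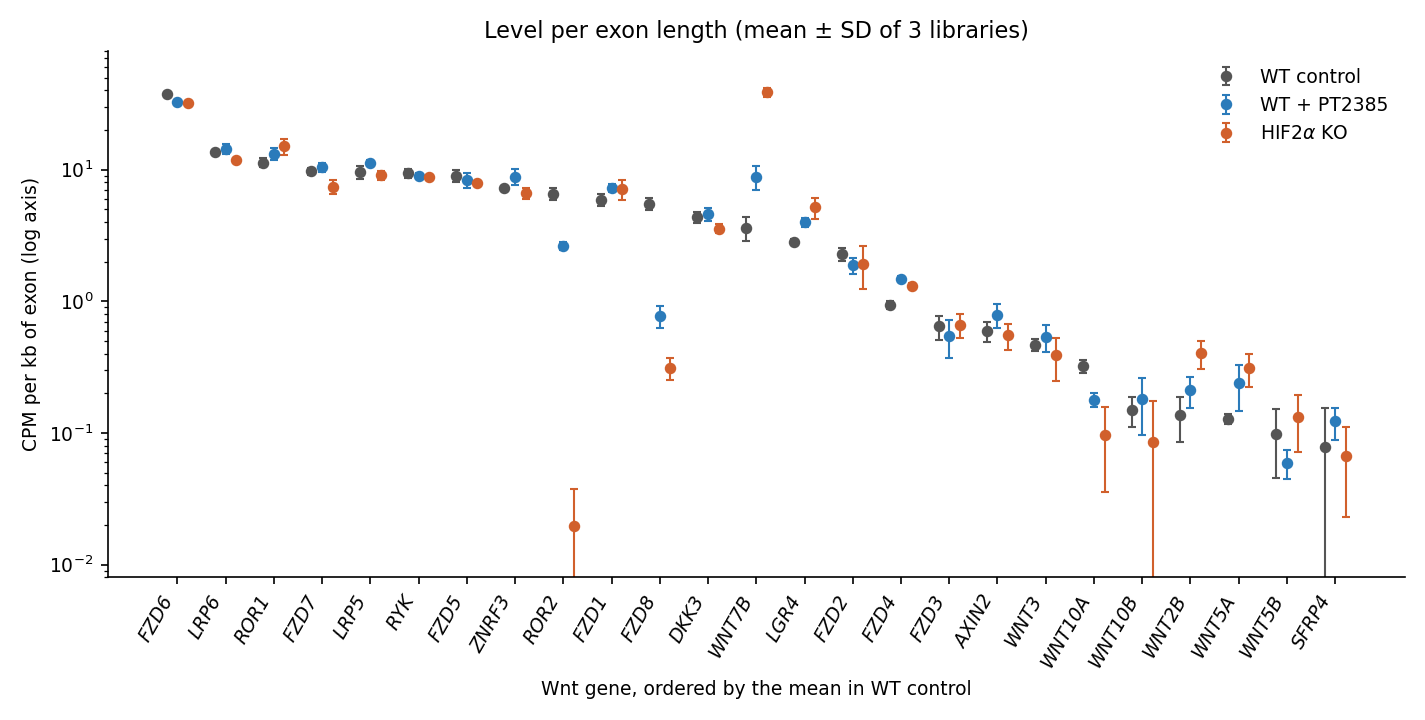
Level of the 25 Wnt genes that exceeded 3 counts in at least 1 library, in CPM per kb of exon on a log axis, as mean ± SD of 3 libraries for control, PT2385 and KO. Genes are ordered by their control level. ROR2, FZD8 and WNT7B lie farthest apart between the groups, and bars that reach the lower edge stand for an SD close to the mean or larger.

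Upon PT2385 treatment, 5 of the 21 tested Wnt genes were differentially expressed at an adjusted p under 0.05, where 7.70% of all 15089 tested genes were. The ligand WNT7B, the receptor FZD4 and the R-spondin receptor LGR4 were up-regulated, against 3.08% of all genes in that direction, and the receptors FZD8 and ROR2 were down-regulated, against 4.62%. In KO cells 13 of 22 Wnt genes were differentially expressed, where 30.1% of all 15192 genes were. WNT7B, WNT2B, WNT5A, FZD4, ROR1 and LGR4 were up-regulated (14.7% of all genes were), and FZD6, FZD7, FZD8, LRP6, ROR2 and DKK3 were down-regulated (15.4%). The count of 13 also holds WNT10A, which had at most 12 counts in a library. WNT10A and ROR2 entered it through the control libraries alone. When a mean CPM of at least 1 was asked for, which left WNT10A out and kept ROR2, 12 of 21 genes were called. ROR2 reached this mean through the control libraries alone as well, so that this count still holds it. Median log2 fold changes were 0.19 over the 21 Wnt genes with PT2385 and -0.11 over the 22 in KO, against 0.00 for all tested genes in each comparison. The Wnt genes that passed the filter are only a part of the 47, and these counts describe them. The paper had already reported from these data that ROR2 was down-regulated and WNT7B up-regulated with PT2385.

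A pairing of control and PT2385 libraries by replicate number was inferred from the data and is not stated by the labels. Its basis is set out in the methods. With the replicate number as a block, 10 of the 21 Wnt genes were differentially expressed with PT2385 in place of 5, and 15.3% of all genes. The added genes had small changes. FZD1 had a log2 fold change of 0.29 (adjusted p = 0.00816 in the paired fit and 0.0742 in the unpaired one), ZNRF3 0.27 (0.0187 and 0.105), LRP5 0.24 (0.0435 and 0.128), ROR1 0.22 (0.0203 and 0.156) and FZD6 -0.20 (0.0191 and 0.0711). Without PT2385 replicate 3 the unpaired values of ZNRF3 and ROR1 were 0.16 and 0.14.

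Directly compared, KO and PT2385-treated cells differed in 9 of 21 Wnt genes, where 18.8% of all 15402 genes differed. WNT7B and WNT2B were higher in KO (8.47% of all genes were), and FZD7, FZD8, LRP5, LRP6, ROR2, ZNRF3 and DKK3 were lower (10.3%). ROR2 entered this comparison through the PT2385 libraries alone. The median over the 21 genes was -0.08, against 0.00 for all genes.

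**Figure D2:**
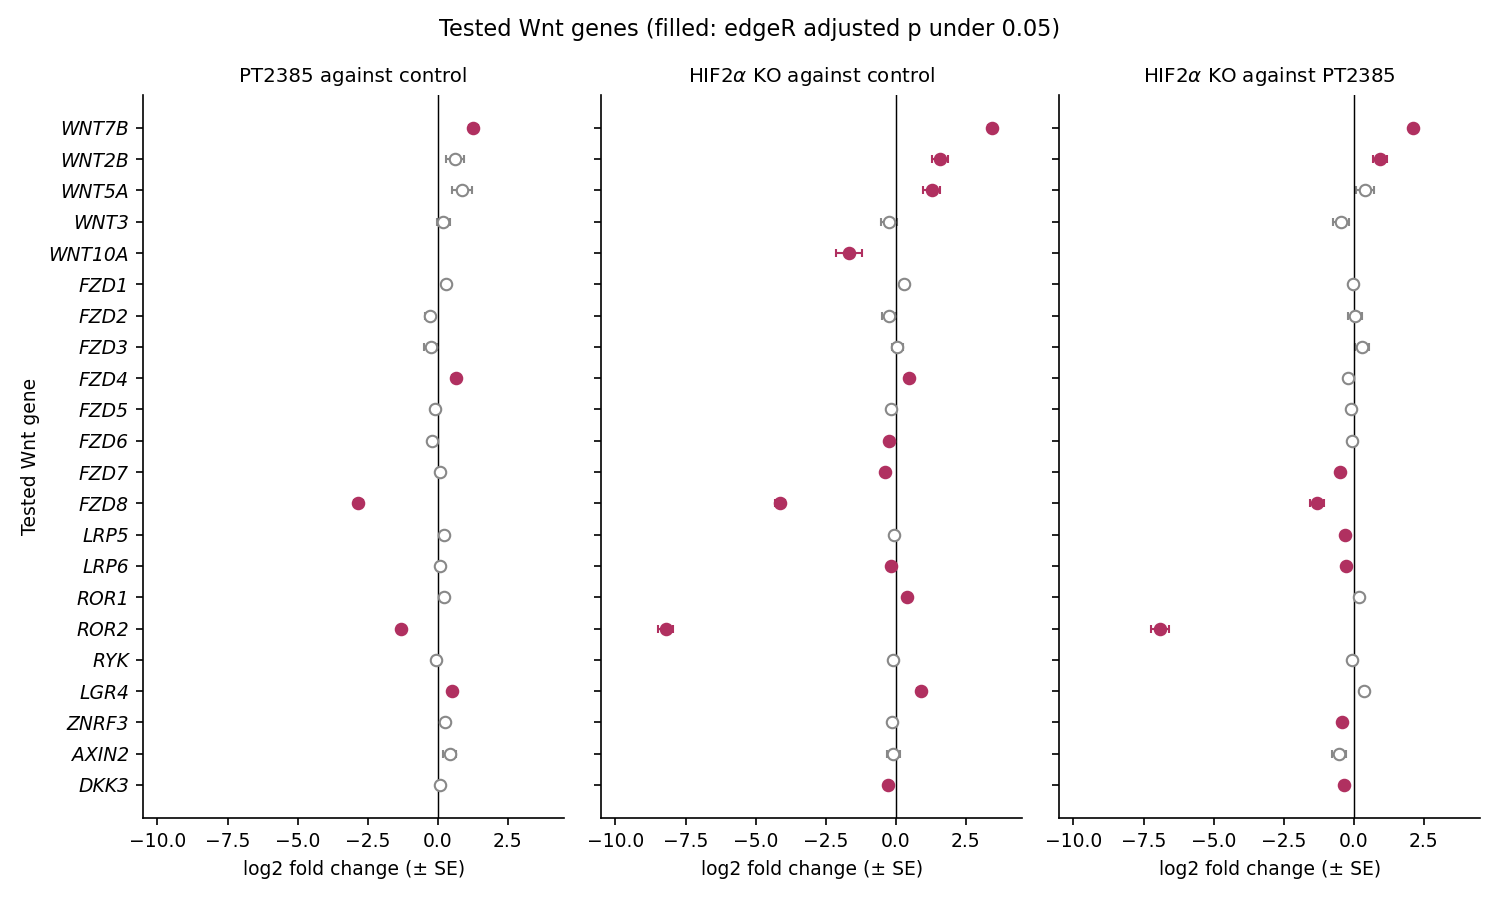
Log2 fold change with its SE (bars, hidden where smaller than the symbol) of the 22 tested Wnt genes in the 3 comparisons, with filled symbols at an edgeR adjusted p under 0.05. WNT10A was tested in KO against control only. ROR2 in KO rests on 5 counts over 3 libraries, so its fitted value of -8.21 is no measure of the true size.

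WNT7B encodes a ligand of the canonical pathway (ENSG00000188064, chr22:45920366-45977162). It had 14.3, 19.3 and 21.7 CPM in control, 36.9, 42.1 and 55.2 with PT2385, and 186, 189 and 216 in KO. The 3 groups did not overlap, and every KO library lay far above every other one. With PT2385 the log2 fold change was 1.28 (SE 0.162, adjusted p = 3.32e-04), a 2.42-fold rise. In KO it was 3.43 (SE 0.123, adjusted p = 7.95e-09), a 10.8-fold rise, and KO exceeded PT2385 by a log2 fold change of 2.13 (SE 0.131, adjusted p = 2.39e-06). In bulk libraries such as these, more cells with a transcript and more RNA per cell cannot be told apart, and the same holds for every other change.

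WNT7B also dominated the ligand transcripts. Summed over the 19 WNT genes, the level was 4.28, 4.99 and 5.69 CPM per kb in control, 8.67, 9.93 and 12.0 with PT2385, and 37.7, 38.9 and 44.04 in KO. WNT7B made up 65.9 to 76.0% of that sum in control libraries, 83.4 to 90.3% with PT2385 and 95.9 to 96.8% in KO. The sum followed WNT7B. WNT3 came next in control and with PT2385. It had 2.30 to 2.84 CPM in control, 2.44 to 3.66 with PT2385 and 1.54 to 2.95 in KO, and its groups overlapped. In KO WNT2B had the next highest mean, 0.403 ± 0.095 CPM per kb against 0.389 ± 0.139 for WNT3. These did not differ beyond their spread.

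The other ligands were counted with few reads. WNT5A, the main ligand of ROR2 and of β-catenin-independent signalling, had 11, 12 and 10 counts in control, 30, 20 and 17 with PT2385, and 26, 42 and 25 in KO. Both other groups lay above control. Only the KO change passed the test, with a log2 fold change of 1.28 (SE 0.307, adjusted p = 0.00884), and that with PT2385 was 0.87 (SE 0.346, adjusted p = 0.173). The direct comparison gave 0.39 (SE 0.325, adjusted p = 0.459). When 1 library was left out, the value with PT2385 ran from 0.54 to 1.08 and that of the direct comparison from 0.14 to 0.73.

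WNT2B, a further ligand of the canonical pathway, had 29, 17 and 15 counts in control, 38, 40 and 26 with PT2385, and 48, 87 and 76 in KO. Control and PT2385 libraries overlapped, and the KO libraries were highest. The log2 fold change was 1.57 in KO (SE 0.284, adjusted p = 0.00165), 0.62 with PT2385 (SE 0.314, adjusted p = 0.293) and 0.94 between KO and PT2385 (SE 0.257, adjusted p = 0.0269). The last of these was not called without KO replicate 2, PT2385 replicate 2 or PT2385 replicate 3, with adjusted p of 0.0968, 0.0543 and 0.0805. WNT2B shares 2665 exonic bases with ST7L on the opposite strand, and the strand setting of the counting is not given in the sources used here. ST7L itself had values of 0.12 upon PT2385 treatment and 0.10 in KO, and neither passed the test.

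WNT10A, a ligand of the canonical pathway, had 12, 10 and 12 counts in control, 6, 8 and 7 with PT2385, and 2, 7 and 3 in KO. Every control library lay above every KO library, and the gene passed the filter by its control libraries alone. The difference is therefore a description. The fit called it (log2 fold change -1.68, SE 0.461, adjusted p = 0.0178), and so did the fit without a filter, but the call was lost with DESeq2 (adjusted p = 0.0707) and without KO replicate 1 (0.0716), KO replicate 3 (0.0504), control replicate 1 (0.0596) or control replicate 3 (0.0591).

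FZD8, a Frizzled receptor (ENSG00000177283, chr10:35638247-35642296), had 24.8, 20.7 and 21.5 CPM in control, 2.66, 3.81 and 2.93 with PT2385, and 1.16, 1.52 and 1.10 in KO. The counts behind the KO values were 15, 22 and 16. Control libraries were high, both other groups were low, and no group overlapped another. FZD8 was down-regulated 7.11-fold by PT2385 (log2 fold change -2.83, SE 0.152, adjusted p = 1.66e-07) and 17.4-fold in KO (-4.12, SE 0.172, adjusted p = 2.81e-08). KO cells had less FZD8 than PT2385-treated cells (-1.31, SE 0.259, adjusted p = 0.00486).

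ROR2, a receptor tyrosine kinase that binds WNT5A (ENSG00000169071, chr9:91563091-91950228), had 463, 420 and 506 counts in control, 191, 195 and 238 with PT2385, and 0, 2 and 3 in KO. ROR2 was intermediate with PT2385 and at the limit of detection in all KO libraries. With PT2385 its level was 15.5 ± 1.03 CPM against 38.5 ± 3.87 in control (SD, n = 3), a log2 fold change of -1.31 (SE 0.101, adjusted p = 4.51e-06). Summed over the libraries and scaled for depth, control had 323 times the ROR2 counts of KO (95% counting interval 138 to 997), and PT2385-treated cells had 131 times (55.6 to 403). ROR2 passed the filter in these comparisons only through the group in which it is high, so that these differences are descriptions. The fits gave adjusted p of 4.27e-09 and 4.15e-07, and both calls also held without the filter. They held with a mean CPM of at least 1 as well, which ROR2 reached through the same groups alone.

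The promoters of FZD8 and ROR2 are shown because these genes had the largest falls among the tested Wnt genes in both comparisons with control, and HIF dimers bind DNA at hypoxia response elements. The 250 bases before the start of each gene were taken from the promoter table of RefSeq (GRCh38.p14, minus strand for both, chr10:35642297-35642546 and chr9:91950229-91950478). Capitals mark the core letters ACGTG or GCGTG, searched on both strands. The first of these is also part of the E-box CACGTG.
FZD8: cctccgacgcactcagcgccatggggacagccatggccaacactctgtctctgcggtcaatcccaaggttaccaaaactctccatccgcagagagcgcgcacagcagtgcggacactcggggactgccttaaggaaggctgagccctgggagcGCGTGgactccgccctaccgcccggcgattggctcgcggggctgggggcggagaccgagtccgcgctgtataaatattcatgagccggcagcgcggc
ROR2: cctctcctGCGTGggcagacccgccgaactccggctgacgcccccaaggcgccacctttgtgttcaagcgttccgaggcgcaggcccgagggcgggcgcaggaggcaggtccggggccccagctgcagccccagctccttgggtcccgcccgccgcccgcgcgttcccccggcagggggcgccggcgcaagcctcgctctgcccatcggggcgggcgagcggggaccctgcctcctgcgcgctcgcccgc
Each window held 1 match, GCGTG in both, which began 97 bases before the start of FZD8 and 242 bases before that of ROR2. Such matches are common. At least 1 was held by 49.5% of the 21613 windows of protein-coding genes, by 43.2% of all 35116 windows, and by 17 of the 35 windows (48.6%) of the 31 Wnt genes in that table. WNT7B, which rose in both comparisons with control, was not among these genes, so no window of it could be shown. A match describes the letters in the window and does not show binding.

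FZD4, a Frizzled receptor (ENSG00000174804, chr11:86945679-86955395), had 7.04, 6.42 and 7.44 CPM in control, 10.3, 11.3 and 11.4 with PT2385, and 9.41, 9.21 and 10.2 in KO. All control libraries were lower than all others. The log2 fold change was 0.66 with PT2385 (SE 0.129, adjusted p = 0.00834) and 0.48 in KO (SE 0.135, adjusted p = 0.0206). The first call was lost without control replicate 2 (adjusted p = 0.0529), and the second without control replicate 1 (0.0516) or control replicate 2 (0.0921) and with DESeq2 (0.0565). FZD4 shares 1399 exonic bases with PRSS23 on the opposite strand. PRSS23 had more reads and was also up-regulated, by 0.43 upon PT2385 treatment and 0.88 in KO on the log2 scale. If strand was ignored, reads on the shared bases cannot be told apart between the 2 genes, and they may have gone uncounted. The PRSS23 call with PT2385 (adjusted p = 0.0268) was lost without control replicate 1 (0.125), control replicate 2 (0.141) or PT2385 replicate 2 (0.0841).

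Smaller differences were found among the more abundant Frizzled genes. FZD6, a receptor linked to planar polarity and the most abundant FZD transcript, had 146, 156 and 157 CPM in control, 137, 135 and 128 with PT2385, and 131, 129 and 128 in KO. All control libraries were above the others. The log2 fold change of FZD6 in KO was -0.23 (SE 0.0573, adjusted p = 0.0110), and without control replicate 2 the adjusted p was 0.0518. FZD7 had 41.2, 45.7 and 46.5 CPM in control, 47.6, 43.8 and 51.5 with PT2385, and 37.5, 34.8 and 29.5 in KO. The KO libraries were lowest. FZD7 was lower in KO than in control (log2 fold change -0.38, SE 0.0973, adjusted p = 0.0129) and lower than with PT2385 (-0.49, SE 0.105, adjusted p = 0.00747), and the first of these was not called without control replicate 2 (0.0546) or control replicate 3 (0.0534).

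The other tested Frizzled genes did not pass the unpaired test. FZD1 had 36.8 to 45.3 CPM in control, 47.5 to 53.9 with PT2385 and 42.2 to 58.1 in KO. FZD2 (63 to 135 counts), FZD3 (68 to 158) and FZD5 (655 to 970) overlapped between all groups. Summed over the 10 FZD genes, the level was 68.5, 72.0 and 74.4 CPM per kb in control, 63.1, 62.6 and 65.1 with PT2385, and 59.4, 58.6 and 57.4 in KO. These sums did not overlap. The share of FZD8 in them averaged 7.73% in control, 1.22% with PT2385 and 0.532% in KO, while FZD6 made up 48.6 to 54.7% in every library.

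**Figure D3:**
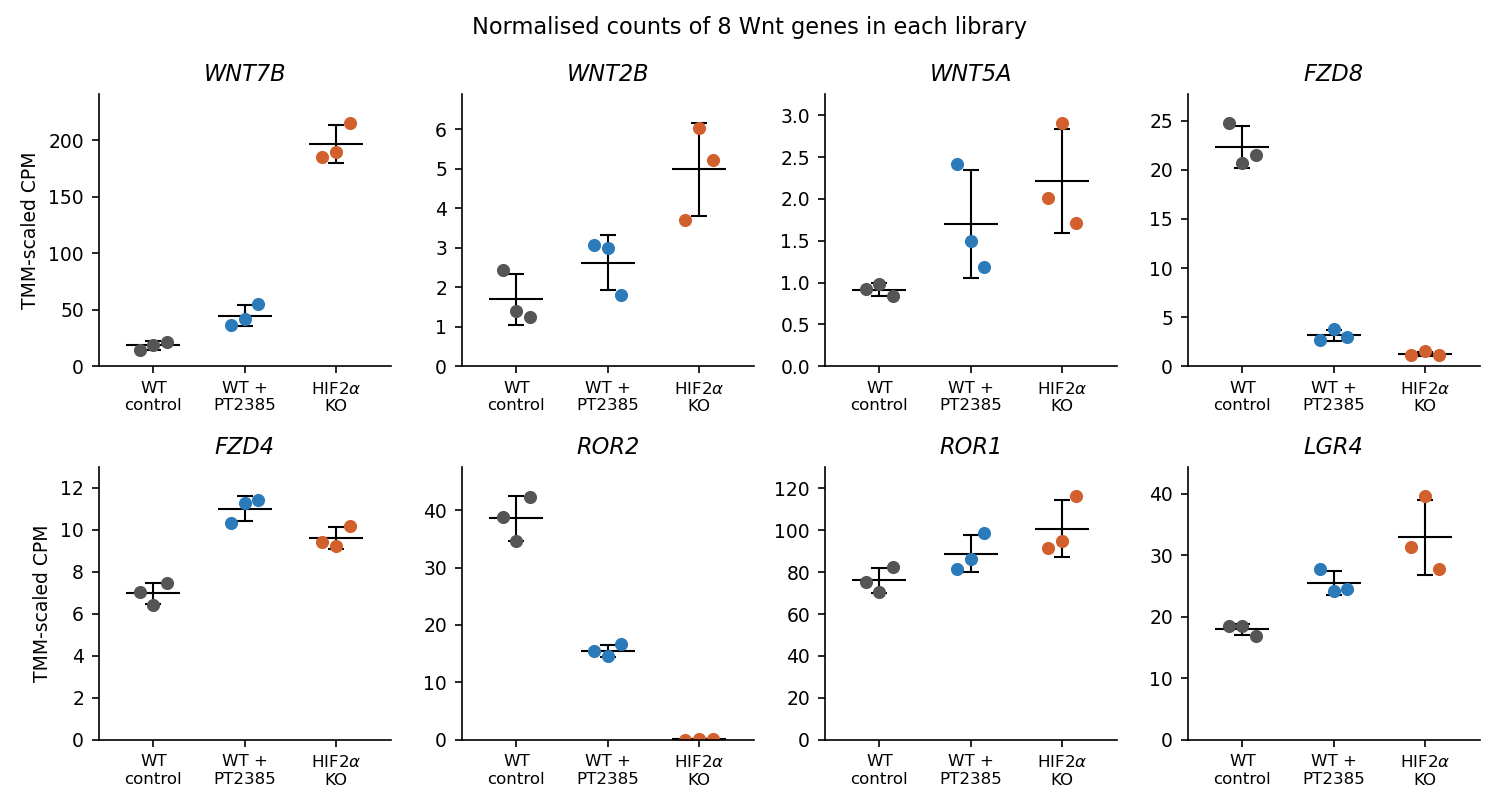
CPM after TMM scaling of 8 Wnt genes in each library (points), with the mean and SD of each group of 3 (black), on linear axes that start at 0. WNT7B climbs from at most 21.7 CPM in control to at least 186 in KO, FZD8 falls from at least 20.7 in control to at most 3.81 in the other groups, and ROR2 ends near 0 in KO.

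ROR1, the paralogue of ROR2, moved the other way. It had 75.4, 70.6 and 82.4 CPM in control, 81.5, 86.4 and 98.8 with PT2385, and 91.3, 94.99 and 116 in KO. KO libraries lay above control, and those with PT2385 overlapped both groups. In KO the log2 fold change of ROR1 was 0.42 (SE 0.0950, adjusted p = 0.00631), while KO against PT2385 gave 0.18 (SE 0.105, adjusted p = 0.281).

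LRP5 and LRP6, the co-receptors of canonical signalling, were lower in KO than with PT2385. LRP6 had 142, 140.4 and 141 CPM in control, 149, 161 and 136 with PT2385, and 124, 125 and 122 in KO. The KO libraries were the lowest. LRP6 had a log2 fold change of -0.18 in KO (SE 0.0551, adjusted p = 0.0327) and of -0.27 between KO and PT2385 (SE 0.0760, adjusted p = 0.0324). Both calls were lost in 5 of 6 fits that left out 1 library, with adjusted p up to 0.0957 without control replicate 1 and 0.190 without PT2385 replicate 2, and the first held only without KO replicate 3 and the second only without PT2385 replicate 3. The first was also lost with DESeq2 (0.0714) and without the low-count filter (0.0827).

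LRP5 had 66.9, 56.5 and 54.2 CPM in control, 67.3, 69.0 and 73.3 with PT2385, and 60.2, 51.6 and 55.9 in KO. The PT2385 libraries were highest. Its log2 fold change between KO and PT2385 was -0.32 (SE 0.0803, adjusted p = 0.0163), which was not called without KO replicate 2 (0.0651), PT2385 replicate 2 (0.0689) or PT2385 replicate 3 (0.0551). RYK, an atypical receptor kinase, had 69.8 to 83.0 CPM over the 9 libraries, and its largest log2 fold change was -0.09, in KO (adjusted p = 0.372).

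LGR4 binds R-spondins and thereby raises Wnt signalling (ENSG00000205213, chr11:27365961-27472790). It had 18.5, 18.4 and 16.9 CPM in control, 27.7, 24.2 and 24.4 with PT2385, and 31.3, 39.6 and 27.8 in KO. Control was lowest and KO highest, without overlap. LGR4 was up-regulated by 0.50 on the log2 scale upon PT2385 treatment (SE 0.0977, adjusted p = 0.00802) and of 0.89 in KO (SE 0.131, adjusted p = 4.31e-04). The difference between KO and PT2385 was 0.37 (SE 0.131, adjusted p = 0.0783), and it was called without the low-count filter (0.0130) and with all 9 libraries in the model (0.0414). When 1 library was left out it ran from 0.21 to 0.48, with adjusted p up to 0.263.

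ZNRF3, a ubiquitin ligase that removes Frizzled receptors from the cell surface, had 49.5, 51.3 and 52.5 CPM in control, 57.3, 56.6 and 71.6 with PT2385, and 41.2, 50.4 and 47.6 in KO. The PT2385 libraries were above the rest. KO was lower than PT2385 by a log2 fold change of -0.42 (SE 0.110, adjusted p = 0.0226), which was not called without KO replicate 1 (0.108) or PT2385 replicate 3 (0.0776). AXIN2, a feedback inhibitor that is itself a target of β-catenin, had 31 to 44 counts in control, 39 to 68 with PT2385 and 30 to 52 in KO. These overlapped, and the log2 fold changes of AXIN2 were 0.43 with PT2385 (SE 0.221, adjusted p = 0.304), -0.08 in KO (SE 0.234, adjusted p = 0.825) and -0.53 between KO and PT2385 (SE 0.236, adjusted p = 0.158). AXIN2 shares 1316 of its 5197 exonic bases with a gene on the same strand that had 4 counts in all. Reads on these bases may have gone uncounted.

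DKK3 was the only secreted inhibitor with enough reads for a test. It belongs to the Dickkopf family but, unlike DKK1, is not known for blocking LRP6. DKK3 had 47.0, 51.8 and 56.8 CPM in control, 50.7, 51.5 and 61.8 with PT2385, and 41.9, 40.0 and 46.3 in KO. KO libraries were lowest. The log2 fold change of DKK3 was -0.27 in KO (SE 0.0872, adjusted p = 0.0399) and -0.36 between KO and PT2385 (SE 0.0980, adjusted p = 0.0270). The first call was lost without KO replicate 1 (0.114), KO replicate 2 (0.119), control replicate 2 (0.101) or control replicate 3 (0.162) and with DESeq2 (0.0590), and the second without KO replicate 1 (0.103), KO replicate 2 (0.0933), PT2385 replicate 2 (0.0610) or PT2385 replicate 3 (0.0950). DKK3 shares 5681 of its 11958 exonic bases with USP47 on the opposite strand, and USP47 was not called in any comparison.

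Other genes of the pathway were read from 4 lists. Of the 23 genes of Wnt secretion and reception, 7 were tested with PT2385, and 1 was up-regulated and 2 down-regulated, with a median log2 fold change of 0.14. In KO 6 were tested, with 1 up-regulated, 2 down-regulated and a median of 0.17. Among all tested genes 7.70% were called with PT2385 and 30.1% in KO. With the replicate block GPC4, a glypican, was also called with PT2385 (0.27, adjusted p = 0.0153, against 0.0653 in the unpaired fit). TPBG, a surface protein known to hold back canonical Wnt signals, fell in both, by 0.69 on the log2 scale with PT2385 (SE 0.0708, adjusted p = 5.88e-05) and by 0.92 in KO (SE 0.0793, adjusted p = 8.12e-06). WLS, the carrier of Wnt proteins to the cell surface, had at most 4 counts in any library.

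TRABD2B, a protease that inactivates Wnt proteins, went in opposite directions. It had 20.5, 11.5 and 14.0 CPM in control, 28.2, 21.3 and 23.9 with PT2385, and 7.10, 9.29 and 9.41 in KO. PT2385 libraries were highest and KO libraries lowest. The log2 fold change was 0.67 with PT2385 (SE 0.178, adjusted p = 0.0412), -0.82 in KO (SE 0.206, adjusted p = 0.0114) and -1.50 between KO and PT2385 (SE 0.149, adjusted p = 6.37e-05). PORCN, which attaches the lipid to Wnt proteins, was -0.48 with PT2385 (adjusted p = 0.0307) and 0.31 in KO (adjusted p = 0.229), and 0.76 between them (adjusted p = 0.0217). TRABD2A, the relative of TRABD2B, was up-regulated in KO by 0.72 (adjusted p = 0.0111). Of these calls, those of TRABD2B and PORCN with PT2385 and of PORCN between KO and PT2385 were lost in 4 of 6 fits that left out 1 library each, with adjusted p up to 0.174, 0.146 and 0.0955, and that of TRABD2A without control replicate 1 (0.0501). With all 9 libraries in the model the adjusted p was 0.172 for PORCN with PT2385.

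KREMEN2, a co-receptor of Dickkopf proteins, had 14, 1 and 6 counts in control, 10, 20 and 15 with PT2385, and 2, 9 and 1 in KO. The KO libraries lay below those with PT2385, and control overlapped both. KREMEN2 passed the filter only through the PT2385 libraries, so that its difference is a description, and it was not tested in KO against control. Between KO and PT2385 the fit gave a log2 fold change of -1.94 (adjusted p = 0.0391), which became -3.25 without KO replicate 2. The call was lost in 4 of 6 fits that left out 1 library, with adjusted p up to 0.158 without PT2385 replicate 2, and with all 9 libraries in the model (0.0613).

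Of 28 cytoplasmic and nuclear genes 25 were tested. With PT2385 2 were up-regulated and none down-regulated, while in KO 8 were up-regulated and 1 down-regulated, with medians of 0.06 and 0.01. These were 2 of 25 with PT2385 and 9 of 25 in KO, where 7.70% and 30.1% of all genes were called. TCF7L2, a TCF factor that binds β-catenin, had a log2 fold change of 0.93 in KO (SE 0.109, adjusted p = 8.20e-05) and 0.13 with PT2385 (adjusted p = 0.551). The β-catenin cofactors BCL9 and BCL9L were up-regulated in KO by 0.39 and 0.50, and BCL9 also with PT2385 by 0.40 (adjusted p = 0.00336). The corepressor TLE3 fell by 0.96 in KO (adjusted p = 3.61e-05), whereas its relative TLE4 rose by 0.41 in KO (adjusted p = 9.64e-04) and by 0.22 with PT2385 (adjusted p = 0.0492). The last of these was lost in 5 of 6 fits that left out 1 library, with adjusted p up to 0.238, and with DESeq2 (0.0788). Smaller rises in KO were called for TCF7 (0.31), for DVL1, which relays the receptor signal (0.28, adjusted p = 0.0436), for GSK3B, a kinase that marks β-catenin for decay (0.19, 0.0231), and for CTNNB1, the gene of β-catenin (0.19, 0.0199). Without KO replicate 3 the value of DVL1 was 0.18. The calls of DVL1, GSK3B and CTNNB1 were lost in 5, 3 and 4 of 6 fits that left out 1 library, with adjusted p up to 0.169 without control replicate 1, and 0.124 and 0.0948 without control replicate 2. Between KO and PT2385, TCF7L2 (0.78), BCL9L (0.35) and TLE3 (-0.76) differed.

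Of 17 target genes of β-catenin 9 were tested. With PT2385 1 was up-regulated and 1 down-regulated, and in KO 3 were up-regulated and 3 down-regulated, with medians of 0.02 and 0.00. These were 2 of 9 and 6 of 9, where 7.70% and 30.1% of all genes were called. CCND1, which encodes cyclin D1, had 717, 788 and 935 CPM in control, 177, 199 and 293 with PT2385, and 194, 122 and 278 in KO. It was low in both groups, with log2 fold changes of -1.87 (SE 0.156, adjusted p = 8.99e-06) and -2.02 (SE 0.225, adjusted p = 5.67e-05). SOX9, a progenitor factor, had 17.0, 11.7 and 10.0 CPM in control, 48.0, 32.0 and 22.1 with PT2385, and 44.1, 26.4 and 33.2 in KO. It was high in both groups, with 1.39 (SE 0.254, adjusted p = 0.00503) and 1.43 (SE 0.210, adjusted p = 4.19e-04). The 2 genes thus changed in opposite directions, and neither differed between KO and PT2385 (adjusted p of 0.696 and 0.965). In KO EPHB2 (0.39) and TCF7 (0.31) were also up-regulated, and JUN (-0.53) and TNFRSF19 (-0.21) down-regulated. The calls of TCF7 and TNFRSF19 were lost in 5 of 6 fits that left out 1 library, with adjusted p up to 0.105 and 0.126, and with DESeq2 (0.0836 and 0.0797). JUN (-0.39) and TNFRSF19 (-0.25) were lower in KO than with PT2385, and these calls were lost in 3 and 4 such fits, with adjusted p up to 0.120 and 0.171. Without PT2385 replicate 2 the value of JUN was -0.26. The call of TNFRSF19 was also lost with DESeq2 (0.0730). With the replicate block JUN was also called with PT2385 (-0.16, adjusted p = 0.0415, against 0.421 in the unpaired fit). Its unpaired value with PT2385 ran from -0.29 to -0.0521 when 1 library was left out.

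Of 13 genes of planar polarity 10 were tested. With PT2385 3 were up-regulated, and in KO 3 were up-regulated and 3 down-regulated, with medians of 0.00 and -0.05. These were 3 of 10 and 6 of 10, where 7.70% and 30.1% of all genes were called. In the unpaired fit no polarity gene was down-regulated by PT2385, but with the replicate block CELSR1 (-0.17, adjusted p = 0.0254, against 0.161) and INVS (-0.27, 0.0334, against 0.196) were. The unpaired value of INVS ran from -0.36 to -0.13 when 1 library was left out. PRICKLE1, a cytoplasmic polarity protein, was up-regulated by 0.44 with PT2385 (adjusted p = 0.00136) and by 0.81 in KO (adjusted p = 5.31e-06). The cadherin CELSR2 was up-regulated by 0.32 (adjusted p = 0.0379) and 0.85 (adjusted p = 2.49e-05), and its relatives CELSR1 and CELSR3 were down-regulated in KO, with log2 fold changes of -0.53 and -1.02. PRICKLE2 had 99.3, 97.8 and 83.5 CPM in control, 147, 145 and 117 with PT2385, and 89.5, 100.2 and 83.6 in KO. It was high only with PT2385, with a log2 fold change of 0.54 (SE 0.0968, adjusted p = 0.00463), against -0.02 in KO (adjusted p = 0.873) and -0.58 between KO and PT2385 (SE 0.102, adjusted p = 0.00247). PRICKLE1 (0.35), CELSR2 (0.51) and CELSR1 (-0.38) also differed between KO and PT2385. SCRIB (0.26) rose and DAAM1 (-0.30) fell in KO. The call of DAAM1 was lost in all 6 fits that left out 1 library, with adjusted p up to 0.154, and with DESeq2 (0.0979), and that of CELSR2 with PT2385 in 4, with adjusted p up to 0.178.

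Taken over the 4 lists, 10 of 50 tested genes were called with PT2385, 23 of 49 in KO and 12 of 50 between KO and PT2385. The shares of all tested genes were 7.70%, 30.1% and 18.8%. With the replicate block the first count was 14, where 15.3% of all genes were called. With a mean CPM of at least 1, which left KREMEN2 out, the last was 11. The first count was 6 without PT2385 replicate 2, control replicate 2 or control replicate 3, and the 1162 calls over all genes became 574, 581 and 728 in these fits. The count of Wnt ligand, receptor and inhibitor genes called in KO against control was 8 in place of 13 without control replicate 2, where that of all genes was 3344 in place of 4566. Between KO and PT2385 it was 5 in place of 9 without KO replicate 2, PT2385 replicate 2 or PT2385 replicate 3, and the 2897 calls over all genes became 2391, 1836 and 2426.

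**Figure D4:**
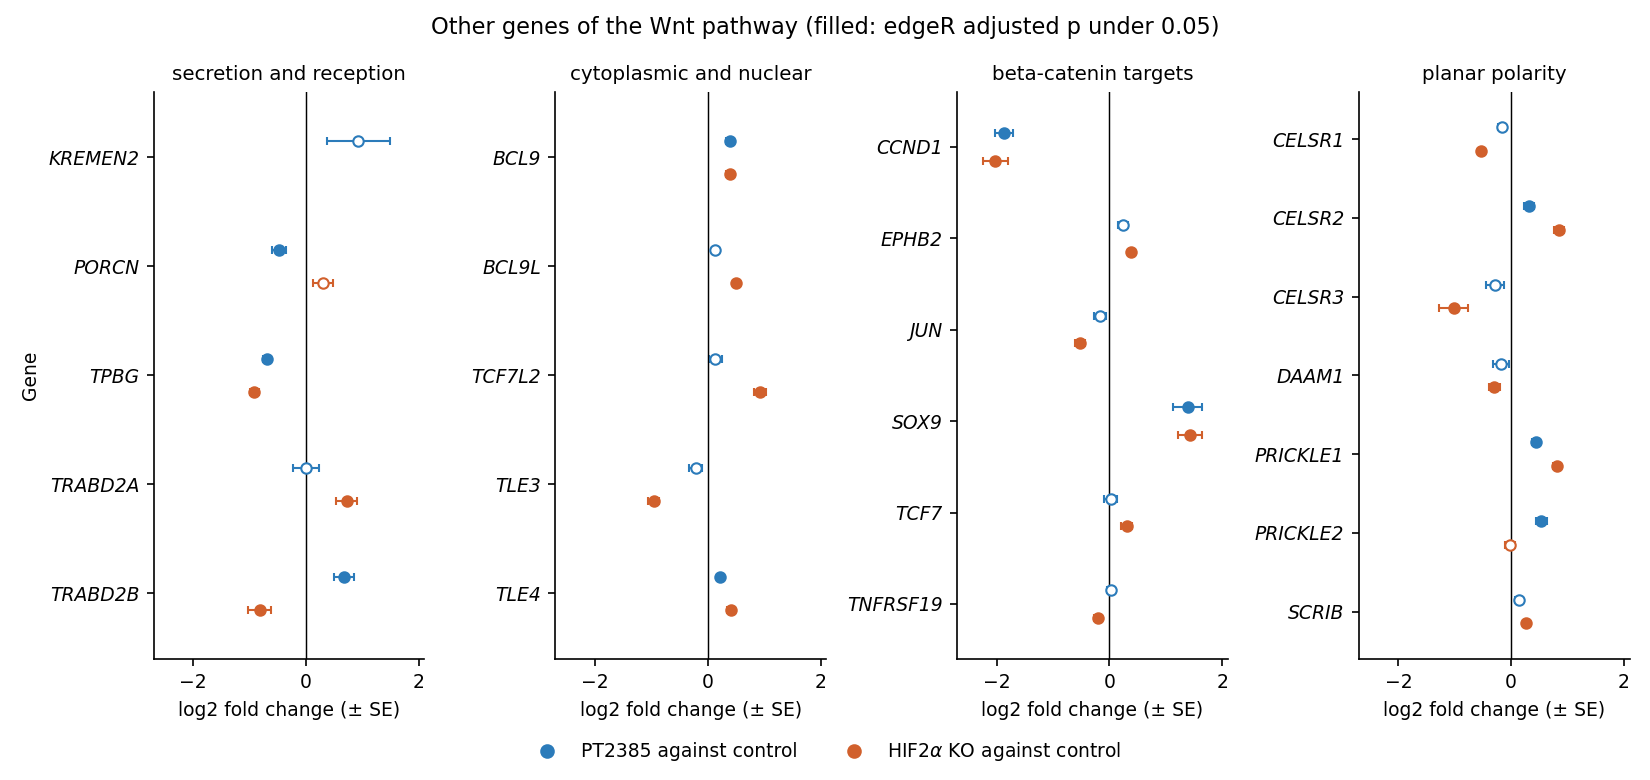
Log2 fold change with its SE of the named genes of the 4 lists, with PT2385 against control in blue and KO against control in orange, and filled symbols at an edgeR adjusted p under 0.05. CCND1 is low and SOX9 high in both comparisons, and TRABD2B lies on opposite sides of 0.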

How the data were processed

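According to the submitters' notes, reads were trimmed with cutadapt, aligned to hg38 with STAR and counted per gene with featureCounts. The deposited unit is the count of reads per gene. The sources used here give no annotation release and no strand setting. Gene names, positions and exon lengths came from GENCODE v44, which gave a symbol to 58207 of 58735 identifiers. All 9 libraries were used, and 0 per-sample columns were left unused.

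Each pair of groups was fitted separately in R 4.3.3 with edgeR 4.0.16 (filterByExpr with a minimum count of 10, TMM scaling, quasi-likelihood F test). limma 3.58.1 was loaded with it. The p-values were adjusted by Benjamini and Hochberg over all tested genes, and a gene was called at an adjusted p under 0.05. CPM values are TMM scaled. The interval of the ROR2 ratio covers counting error only.

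Whether replicate numbers pair the groups was examined over 9555 genes, as the correlation of the deviations from the group mean between libraries of the same number. It was 0.463, 0.145 and 0.445 for PT2385 and control, all above those of differing numbers. For replicate 2 the margin was small, with 0.145 against at most 0.0924. This is a hint from the data and not from the design. Values with a replicate block are therefore given for that comparison for the Wnt genes, the 4 pathway lists and the renal markers wherever the block changed a call.

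Alternatives were DESeq2 1.42.0, RLE and upper-quartile scaling, library size only, no filter, a mean CPM of at least 1, the replicate block, all 9 libraries in 1 model, a test against 1.5-fold, and the removal of each library. The code was tested on simulated data. The gene set and the lists were chosen with earlier results of these data known. From each pathway list the rule named up to 3 called genes in each direction and comparison, by the size of the change. Some further genes are named beside them, among them genes at the limit of detection.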

Additional observations from a re-analysis of the deposited data

How the results depend on the processing

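Upon PT2385 treatment 5 Wnt genes were called against control. The count was 10 with the replicate block, 3 with the test against 1.5-fold and 5 with DESeq2. The block changed no other call among the Wnt genes of that comparison. For the other pathway genes the count of 10 became 14 with the block, 9 with DESeq2 and 1 with the test against 1.5-fold, and ran from 6 to 11 when 1 library was left out. For all genes 1162 became 2305 with the block, 1072 with DESeq2 and 172 with the test against 1.5-fold, and ran from 574 to 1451 when 1 library was left out.

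In KO against control the 13 called Wnt genes became 4 with the test against 1.5-fold, 9 with DESeq2 and 14 with the block, which added FZD1 (0.28, adjusted p = 0.0165). The Wnt count ran from 8 to 12 when 1 library was left out. The 23 other pathway genes became 24 with the block, 20 with DESeq2 and 7 with the test against 1.5-fold. For all genes 4566 became 5501, 3972 and 882 in these fits, and ran from 3344 to 5094 when 1 library was left out.

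Between KO and PT2385 the 9 called Wnt genes became 2 with the test against 1.5-fold, 9 with DESeq2 and 10 with the block, which added LGR4 (0.36, adjusted p = 0.0408). The Wnt count ran from 5 to 9 when 1 library was left out. The 12 other pathway genes became 15 with the block, 13 with DESeq2 and 1 with the test against 1.5-fold, and the 2897 of all genes became 3783, 2612 and 528 in these fits. The count of all genes ran from 1836 to 3190 when 1 library was left out. Other scalings left the 3 counts of Wnt genes at 5, 13 and 9.

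For both KO comparisons the libraries share only a replicate number. Same-numbered libraries correlated by 0.322, 0.0597 and 0.496 between KO and control and by 0.357, 0.0964 and 0.419 between KO and PT2385. KO replicates 1 and 3 correlated best with their own number and KO replicate 2 with another (0.305 and 0.183), which is a hint from the data and not from the design.

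Some log2 fold changes that were not called changed sign when 1 library was left out. With PT2385 against control DKK3 ran from -0.0231 to 0.14, RYK from -0.0949 to 0.00643 and WNT3 from -0.0144 to 0.31. In KO against control AXIN2 ran from -0.27 to 0.0445, FZD2 from -0.47 to 0.0378, FZD3 from -0.0925 to 0.23 and LRP5 from -0.13 to 0.0313. Between KO and PT2385 FZD1 ran from -0.17 to 0.0709, FZD2 from -0.19 to 0.31 and FZD5 from -0.15 to 0.0379. The cause was not tested.

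The study has 3 libraries per group from 1 cell line, at 1 dose and 1 time. Whether the KO libraries came from 1 knockout line or clone is not clear. Transcript counts give no protein level, secretion or pathway activity. The strand setting of the counting is not given. It is therefore not known how reads on bases shared by WNT2B and ST7L, FZD4 and PRSS23, or DKK3 and USP47 were assigned.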
